A study of Mus musculus with 21 samples.

Results

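The Ifit and Oas families encode antiviral proteins that bind RNA, and 10 of their genes were followed here in fibro-adipogenic progenitors (FAPs) of mouse skeletal muscle, mesenchymal cells that expand after injury and can form fat or fibrous tissue. The 10 genes, out of 55341 in the count table, are Ifit1, Ifit2, Ifit3, Ifit3b, Oas1a, Oas1g, Oas2, Oas3, Oasl1 and Oasl2. They were taken by symbol because earlier results of the same RNA libraries had shown their levels to vary, so their RNA values are given as a description without a test. All 10 passed the filter on low counts.

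Interferons secreted by infected cells act through the receptor pair Ifnar1 and Ifnar2 and the kinases Jak1 and Tyk2. These activate a transcription factor complex that includes Stat2 and Irf9 and binds a repeated GAAA element in the promoters of its target genes. Ifit proteins bind RNA with foreign 5′ ends and hinder its translation. Oas enzymes sense double-stranded RNA and make short oligoadenylates, a second messenger of the antiviral response, while Oasl proteins carry a related fold with a ubiquitin-like tail.

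In the series, adult Prdm16Flox/Flox::PdgfrαCre-ERT/+ mice (called Prdm16), in which tamoxifen activates a Cre expressed from Pdgfra, were compared with Prdm16Flox/Flox::Pdgfrα+/+ mice (called WT), which have both floxed alleles and lack the Cre. Both genotypes were given tamoxifen on 5 days, and 7 days later muscle was injured with cardiotoxin. Their FAPs were sorted 5 days after injury and grown in culture for 4 to 5 days. Cre is expected only where Pdgfra is active, and both genotypes shared the tamoxifen, the injury and the floxed alleles. RNA was sequenced from 2 Prdm16 and 3 WT libraries, domains of the repressive histone mark H3K9me2 were given for 3 libraries of each genotype, and domains bound by the nuclear lamina protein LaminB1 for 1 of each. Separate animals for the replicates are not stated in the labels, so any p-value measures the spread between these samples, which may be technical. The labels also do not tie an RNA library to a chromatin library.

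Library totals were 8448654 and 5839587 counts in the libraries labelled Prdm16 replicates 1 and 2, and 10657791, 7053114 and 10284864 in those labelled WT replicates 1, 2 and 3. The labels of these libraries were in doubt. With the libraries labelled Prdm16 replicate 1 and WT replicate 3 exchanged, DESeq2 gave a p-value within 1% of the one in the authors' deposited table for 15240 of 15240 genes, and as labelled for 179 (1.17%). The authors' deposited table thus treats the libraries labelled Prdm16 replicate 2 and WT replicate 3 as the Prdm16 pair. The count of Prdm16 itself was 91 and 86 in the libraries labelled Prdm16, and 171, 94 and 59 in those labelled WT, so it overlapped between the genotypes. The library labelled Prdm16 replicate 2 had 15 counts of Xist, the RNA of the inactive X chromosome, and 1322 counts over 4 Y genes, while the other 4 libraries had 3483 to 4652 counts of Xist and 0 to 4 of the Y genes. The summed level of 6 FAP markers (Col1a1, Col3a1, Ly6a, Pdgfra, Dcn and Cd34) was 6423 and 6257 CPM (counts per 1000000 of the scaled library total) in the libraries labelled Prdm16, and 6394, 6858 and 3417 CPM in those labelled WT. Col1a1, with 2296 CPM, was the largest part of this sum in Prdm16 replicate 2. Of the 6 markers, 3 were lowest in Prdm16 replicate 2 and WT replicate 3, against 14.1% of all genes tested. Libraries are named by their labels below, and directions follow the labels unless the authors' deposited table is named.

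The genes lie on 2 chromosomes of the GRCm38.p6 build. The Ifit genes form a cluster on chromosome 19, from Ifit2 (34550550 to 34576534) through Ifit3 (34583119 to 34588982) and Ifit3b (34607530 to 34613403) to Ifit1 (34640889 to 34650009). On chromosome 5 Oasl2 (114896926 to 114912245) and Oasl1 (114923143 to 114937911) are neighbours. Further along lie Oas2 (120730333 to 120749886), Oas3 (120753098 to 120777684), Oas1g (120876142 to 120887613) and Oas1a (120896256 to 120907544). The span of Ifit1bl1 (34592888 to 34662981) overlaps Ifit3b and Ifit1. Ifit3 and Ifit3b, and Oas1a and Oas1g, are close paralogs, and no source used here states whether counting used strand, so reads of these genes could be split between them.

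RefSeq promoter windows of GRCm38.p6, from 250 bases before to 50 bases after the transcription start, were matched for 9 of the 10 genes, all but Oas2. Each was searched on both strands for the core of the interferon-stimulated response element, GAAANNGAAA, where N is any base. The core was present in 6 of the 9 genes with a window (66.7%), against 1131 of 32851 mouse windows of the same length (3.44%) and 393 of the 10388 genes tested for RNA that had a window (3.78%). The core was searched because it is the element described above for targets of interferon, so these shares are a description. The stretches that hold it are shown because 6 of the 9 genes have it and the choice of genes did not use promoter sequence. They are written 5′ to 3′ along the gene, and the capitals mark the core, which reads TTTCNNTTTC where it lies on the other strand.
Ifit1, chr19:34640770-34640828, plus strand: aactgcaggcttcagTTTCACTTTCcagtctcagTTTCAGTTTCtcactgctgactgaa
Ifit3, chr19:34583358-34583431, plus strand: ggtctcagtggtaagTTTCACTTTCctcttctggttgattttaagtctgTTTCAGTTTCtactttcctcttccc
Ifit3b, chr19:34607754-34607827, plus strand: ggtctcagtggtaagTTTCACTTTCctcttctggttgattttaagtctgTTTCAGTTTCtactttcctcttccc
Oas1a, chr5:120907526-120907560, minus strand: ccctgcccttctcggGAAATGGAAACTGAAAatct
Oas1g, chr5:120887614-120887646, minus strand: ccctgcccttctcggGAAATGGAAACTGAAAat
Oas3, chr5:120777710-120777749, minus strand: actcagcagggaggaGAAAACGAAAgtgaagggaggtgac

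The 3 Ifit stretches each held a pair of separate cores, both on the other strand. As printed, the free bases were AC in the first core and AG in the second, in all 3 genes. In Ifit1 the pair lay at -104 to -95 and -85 to -76 from the start. In Ifit3 it lay at -156 to -147 and -122 to -113, and in Ifit3b at -188 to -179 and -154 to -145. Positions count from the start used for each window, which for some genes lies inside the gene span given above. The printed Ifit3 and Ifit3b stretches thus lie within those gene spans. The printed 74 bases were identical in Ifit3 and Ifit3b, and over the whole windows 258 of 274 aligned positions (94.2%) were identical. In Oas1a and Oas1g the pair of cores shared its middle GAAA and ended 5 and 3 bases before the start, at -20 to -5 in Oas1a and -18 to -3 in Oas1g, and 261 of 303 aligned positions of the windows (86.1%) were identical. Oas3 held 1 core, at -75 to -66. Because paralogs share these stretches, the 6 genes are not 6 independent occurrences.

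The core followed by CT was present in 5 of the 9 genes, all but Oas3 of the 6 named, against 0.271% of all windows. No core was found in the windows of Ifit2, which has a window at each of 2 starts, or of Oasl1 and Oasl2. Both starts of Ifit2 and the starts of Oasl1 and Oasl2 lie inside the gene spans given above. Bases before those spans were thus searched only in part. The gamma-activated site TTCNNNGAA, the other common interferon element, was present in Ifit2 and Oas1a (2 of 9, 22.2%), against 8.30% of all windows. A match is a description of these letters, and binding was not measured.

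**Figure D1:**
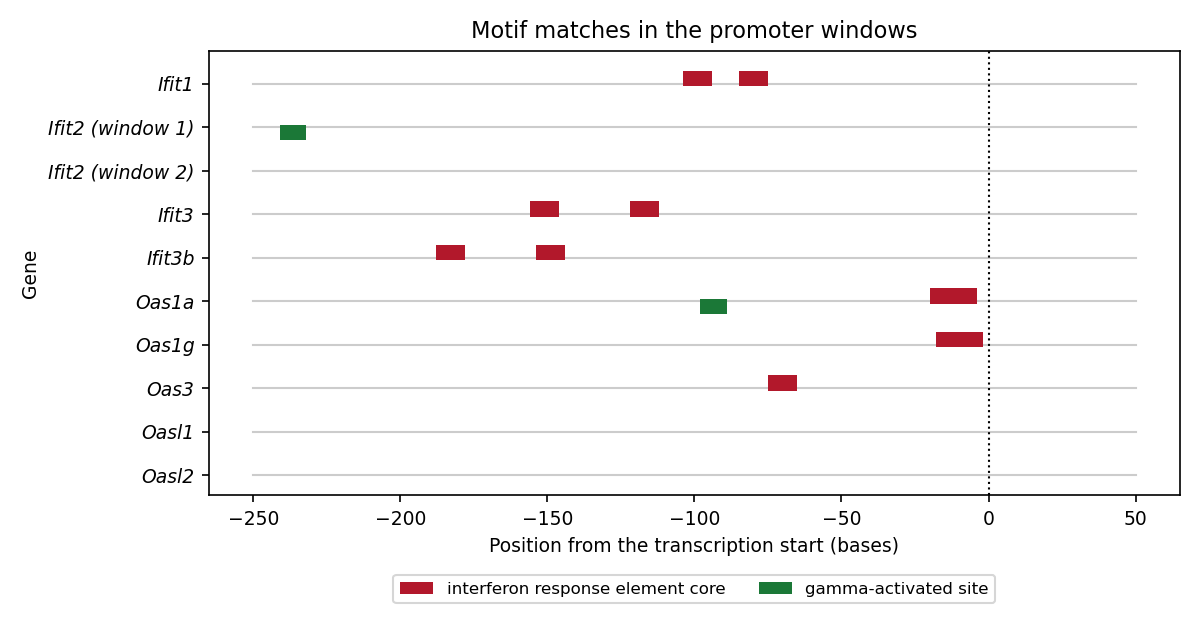
Positions of motif matches in the 300-base promoter windows. The horizontal axis is the distance in bases from the transcription start (dotted line), each row is a window of a gene, red boxes are cores of the interferon-stimulated response element and green boxes gamma-activated sites. The cores of Oas1a and Oas1g end 5 and 3 bases before the start, and those of the 3 Ifit genes lie from -188 to -76.

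In RNA, all 10 genes fell into the same 2 sets of libraries, and those sets did not follow the labelled genotypes. The libraries labelled Prdm16 replicate 1, WT replicate 1 and WT replicate 2 had high levels of every member. Those labelled Prdm16 replicate 2 and WT replicate 3 had low levels of every member, below the other 3 libraries in 10 of 10 genes against 2154 of 15240 genes tested (14.1%). The genes were chosen from these values, so the count is a description.

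Ifit1 recognises RNA whose cap lacks ribose methylation. Its level was 372 and 19.0 CPM in the libraries labelled Prdm16 replicates 1 and 2, and 311, 490 and 16.8 CPM in those labelled WT replicates 1, 2 and 3. Ifit3, whose human counterpart binds and stabilises IFIT1, was at 556 and 22.2 CPM in the libraries labelled Prdm16, and 490, 767 and 20.9 CPM in those labelled WT. The genotypes overlapped for both genes, with the lowest library in the WT group and the highest too. Ifit3b, a close copy of Ifit3, was at 192 and 4.97 CPM in the libraries labelled Prdm16, and 159, 257 and 10.7 CPM in those labelled WT. Ifit2, known in mice for protecting neurons from infection by neurotropic viruses, had 125 and 25.2 CPM in the libraries labelled Prdm16, and 110, 124 and 33.8 CPM in those labelled WT. For Ifit3b and Ifit2 the lowest library was the one labelled Prdm16 replicate 2. Ifit2 kept the most RNA of the 4 Ifit genes in the low libraries relative to its own level in the high ones.

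Oas1a is an enzyme that makes these oligoadenylates. Its level was 39.8 and 3.02 CPM in the libraries labelled Prdm16 replicates 1 and 2, and 52.9, 46.2 and 1.31 CPM in those labelled WT replicates 1, 2 and 3. Its neighbour Oas1g had 3.74 and 0.36 CPM in the libraries labelled Prdm16, from 32 and 2 counts, and 6.64, 4.59 and 0.187 CPM in those labelled WT, from 69, 32 and 2 counts. Oas1g was thus close to the limit of detection in both low libraries. Oas2, a longer enzyme of the family, had 17.3 and 1.42 CPM in the libraries labelled Prdm16, and 19.8, 29.4 and 0.653 CPM in those labelled WT. Oas3, the longest of them, had 11.8 and 0.71 CPM in the libraries labelled Prdm16, and 16.5, 7.88 and 0.373 CPM in those labelled WT. All 4 Oas genes were lowest in the library labelled WT replicate 3, with 2 to 14 counts there, and next lowest in that labelled Prdm16 replicate 2, with 2 to 17 counts.

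Oasl2, an Oas-like protein with a ubiquitin-like tail, had 304 and 26.3 CPM in the libraries labelled Prdm16 replicates 1 and 2, and 337, 314 and 19.7 CPM in those labelled WT replicates 1, 2 and 3. Oasl1, which lacks synthetase activity and in mice restrains translation of Irf7, had 70.9 and 17.4 CPM in the libraries labelled Prdm16, and 76.9, 65.1 and 16.4 CPM in those labelled WT. In the 3 high libraries each of these genes varied little, and the low libraries of both genotypes were close to each other.

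**Figure D2:**
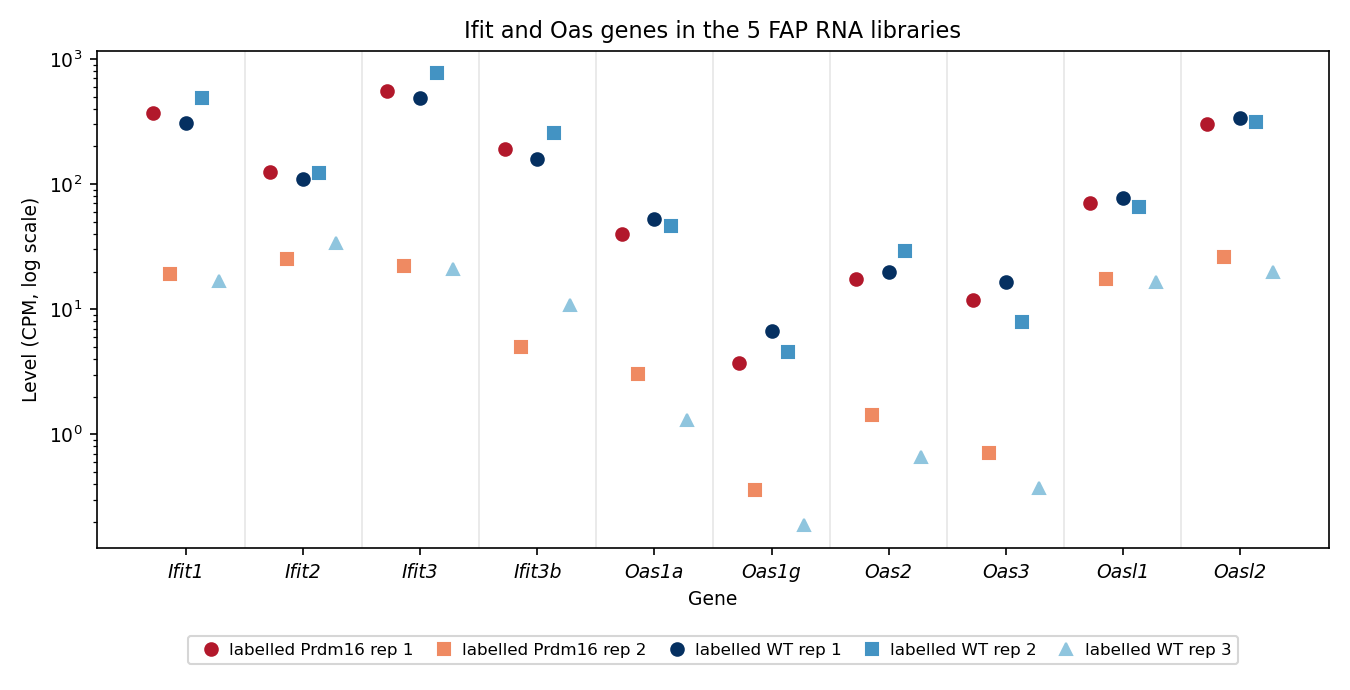
Levels of the 10 genes in the 5 RNA libraries, on a log axis in CPM of the scaled library size. Each point is 1 library, with libraries labelled Prdm16 in red tones left of those labelled WT in blue tones. In every gene the lower points are the libraries labelled Prdm16 replicate 2 and WT replicate 3.

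The genotypes were then compared across the whole table as labelled. edgeR's quasi-likelihood test gave 0 of 15240 genes (0%) an adjusted p under 0.05, with 378 at an unadjusted p under 0.05, and DESeq2 called 1. The log2 fold changes of the 10 genes, Prdm16 over WT, were all negative, with a median of -0.50 against 0.00 over all genes tested, of which 7606 were lower and 7634 higher. They ran from -0.82 with a standard error (SE) of 1.35 in Oas1g to -0.24 (SE 0.87) in Ifit2. Each was smaller than its SE. That SE was the size of the fold change divided by the square root of edgeR's F statistic, so it was not estimated separately. Ifit3 averaged 289 ± 377 CPM (SD, n = 2) in Prdm16 and 426 ± 377 CPM (SD, n = 3) in WT, and Ifit1 196 ± 250 CPM (SD, n = 2) in Prdm16 and 273 ± 239 CPM (SD, n = 3) in WT.

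The direction by the labels rested on single libraries. Without the library labelled Prdm16 replicate 2, the sign turned for 9 of the 10 genes and the median was 0.45. Without that labelled WT replicate 1 it turned for 2 genes and the median was -0.10, and without WT replicate 2 it turned for 4 genes and the median was -0.09. The median was -1.04 without WT replicate 3 and -3.51 without Prdm16 replicate 1. Without both libraries whose labels the authors' deposited table contradicts, the values ran from -5.40 to -2.05 with a median of -4.08, a description from 1 library labelled Prdm16 and 2 labelled WT.

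In the authors' deposited table, whose grouping differs from the labels, all 10 genes were called down, against 348 of the 6237 genes with an adjusted p (5.58%). The limits in the name of the authors' deposited table are a p of 0.1, which the calls apply to the adjusted p, and a log2 fold change of 0.5. Ifit3 had the smallest p of the authors' deposited table, with a log2 fold change of -4.79 (SE 0.28) and an adjusted p of 4.7e-65. Ifit1 followed at rank 3 by p (-4.43, SE 0.28, adjusted p 3.8e-54 in the authors' deposited table) and Oasl2 at rank 4 (-3.79, SE 0.26, adjusted p 6.3e-48). In the authors' deposited table the other log2 fold changes were -4.61 for Ifit3b, -4.46 for Oas1a, -4.41 for Oas2, -4.39 for Oas3 and -3.92 (SE 0.93, adjusted p 0.000415) for the sparsely counted Oas1g. Oasl1 (-2.02, SE 0.28) and Ifit2 (-1.95, SE 0.27) had the smallest changes of the 10 in the authors' deposited table. These calls used the contrast from which the 10 genes were chosen.

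The spread within a labelled genotype was wide for every gene. Ifit3b was 38.7-fold higher in the library labelled Prdm16 replicate 1 than in Prdm16 replicate 2 (95% interval 26.7 to 58.4), Ifit3 25.0-fold (21.0 to 30.2) and Ifit1 19.6-fold (16.2 to 24.0). The same ratio was 11.6 (9.80 to 13.8) for Oasl2 and 13.2 (8.11 to 22.9) for Oas1a. It was 4.95 (4.15 to 5.94) for Ifit2 and 4.07 (3.28 to 5.09) for Oasl1, intervals that lay apart from those of the first 5 genes. Oas1g, at 10.5 (2.68 to 90.6), was too sparsely counted to be placed. These intervals cover counting error only, and reads of amplified libraries are not independent molecules.

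Among the libraries labelled WT, the ratios of replicate 1 to replicate 3 were 40.5 for Oas1a, 44.3 for Oas3, 30.3 for Oas2 and 35.6 for Oas1g. They were 23.4 for Ifit3, 18.5 for Ifit1, 17.1 for Oasl2 and 14.8 for Ifit3b. Oasl1 and Ifit2 were again the narrowest, at 4.68 and 3.26. Over all 5 libraries the range on the log2 scale was 2.23 in Oasl1 and 2.31 in Ifit2, then 4.10 in Oasl2, 4.87 in Ifit1 and 5.15 to 5.69 in the other 6.

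Since the paralogs did not move by one factor, their proportions differed between libraries. There were 0.335 counts of Ifit2 per count of Ifit1 in the library labelled Prdm16 replicate 1 (95% interval 0.312 to 0.359) and 1.33 (1.03 to 1.72) in Prdm16 replicate 2. In those labelled WT replicates 1, 2 and 3 there were 0.354 (0.331 to 0.379), 0.252 (0.234 to 0.272) and 2.01 (1.68 to 2.42). Ifit2 had fewer counts than Ifit1 in the 3 high libraries and more in both low ones. Counts of Oasl1 per count of Oasl2 were 0.233 (0.213 to 0.255) and 0.662 (0.508 to 0.860) in the libraries labelled Prdm16, and 0.228, 0.207 and 0.834 (0.679 to 1.02) in those labelled WT. These ratios within a library do not depend on how the libraries are scaled.

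Of the other pairs, Ifit3 and Ifit1 kept closer proportions. Counts of Ifit3 per count of Ifit1 were 1.49 and 1.17 in the libraries labelled Prdm16, and 1.58, 1.57 and 1.24 in those labelled WT. Counts of Ifit3b per count of Ifit3 were 0.346 and 0.224 (0.143 to 0.340) in the libraries labelled Prdm16, and 0.324, 0.335 and 0.513 (0.406 to 0.646) in those labelled WT. The intervals of the 2 low libraries did not overlap each other. That of Prdm16 replicate 2 held the values of WT replicates 1 and 2, and that of WT replicate 3 lay above all 3 high libraries. Oas1g per Oas1a ran from 0.0938 to 0.143 over the 5 libraries. In Prdm16 replicate 2 and WT replicate 3 it rested on 2 counts of Oas1g each. Its intervals there were 0.0132 to 0.496 and 0.0158 to 0.622, too wide to show a constant proportion. Counts of Oas3 per count of Oas2 were 0.682 (0.525 to 0.885) and 0.5 (0.110 to 1.87) in the libraries labelled Prdm16, and 0.835 (0.678 to 1.03), 0.268 (0.195 to 0.363) and 0.571 (0.123 to 2.25) in those labelled WT. Among the 3 high libraries the share of Oas3 was lowest in WT replicate 2, and the wide intervals of the 2 low libraries held its value.

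**Figure D3:**
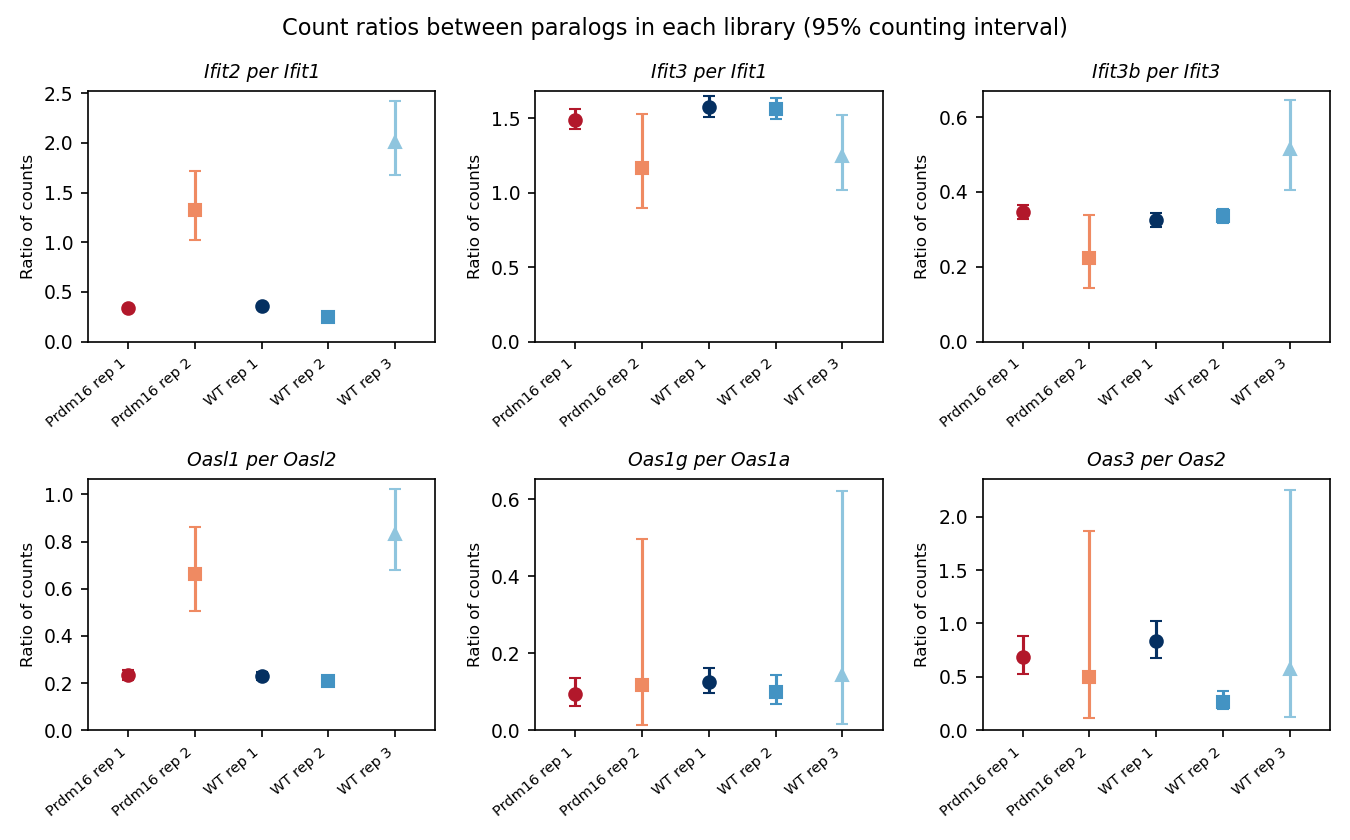
Ratio of counts between paralogs in each RNA library, with 95% counting intervals as bars. Each panel is a pair, with libraries labelled Prdm16 left of those labelled WT. Ifit2 per Ifit1 and Oasl1 per Oasl2 are higher in the libraries labelled Prdm16 replicate 2 (1.33 and 0.662) and WT replicate 3 (2.01 and 0.834) than in the other 3.

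Summed over the 10 genes, the level was 1693 and 120.6 CPM in the libraries labelled Prdm16 replicates 1 and 2, and 1579, 2106 and 120.8 CPM in those labelled WT replicates 1, 2 and 3. The 4 Ifit genes made up 73.6% and 59.2% of these counts in the libraries labelled Prdm16, and 67.7%, 77.8% and 68.0% in those labelled WT. The 2 Oasl genes made up 22.1% and 36.2% in the libraries labelled Prdm16, and 26.2%, 18.0% and 29.9% in those labelled WT. The Oas genes held the remainder, at most 6.07%.

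The other Ifit and Oas genes of the table were sparse. Of 8 listed, 4 passed the filter on low counts, and all 4 were lowest in the same 2 libraries, against 14.1% of all genes tested. Oas1b, annotated as a transcribed pseudogene in this build, had 14.6 and 1.78 CPM in the libraries labelled Prdm16, and 16.8, 19.1 and 1.59 CPM in those labelled WT. Oas1c had 5.95 and 3.55 CPM in the libraries labelled Prdm16, and 10.9, 9.17 and 1.40 CPM in those labelled WT. Ifit1bl2 and Ifit1bl1 were at 3.58 CPM or less in every library, Oas1e and Oas1h had 0 counts in all 5, and Oas1d and Oas1f had at most 1 count in a library. By edgeR and the labels 0 of the 4 were called, and 3 of the 3 with an adjusted p in the authors' deposited table were called down.

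Abce1, a ribosome recycling factor linked to the oligoadenylate system, had 193 and 191 CPM in the libraries labelled Prdm16, and 129, 125 and 254 CPM in those labelled WT. Abce1 was not low in either library where the Oas genes were low. Akap7, listed with it, was lowest in those 2 libraries, with 12.02 and 8.35 CPM in those labelled Prdm16, and 10.97, 13.33 and 7.56 CPM in those labelled WT. It was 1 of the 3 genes of this list with that pattern, against 14.1% of all genes tested. Neither edgeR nor the authors' deposited table called any of the 3. Of the enzymes that methylate the RNA cap, Rnmt had 85.7 and 79.9 CPM in the libraries labelled Prdm16, and 77.1, 81.6 and 91.9 CPM in those labelled WT. Cmtr1 had 5.95 and 3.37 CPM in the libraries labelled Prdm16, and 6.73, 3.01 and 4.29 CPM in those labelled WT. Cmtr2 had 2.10 and 3.91 CPM in the libraries labelled Prdm16, and 3.94, 2.58 and 3.92 CPM in those labelled WT. Of the 3 cap enzymes 0 were lowest in the same pair of libraries and 0 were called by edgeR.

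Sensors of foreign nucleic acid moved in part with the members. Of 10 tested, 7 were lowest in the same 2 libraries, 7 of the 9 with an adjusted p were called down in the authors' deposited table, and 0 were called by edgeR as labelled. Ifih1, the sensor of long double-stranded RNA, had 115 and 18.8 CPM in the libraries labelled Prdm16, and 112, 120 and 13.7 CPM in those labelled WT. Ddx58, the sensor of RNA with a triphosphate end, had 189 and 37.5 CPM in the libraries labelled Prdm16, and 195, 191 and 45.0 CPM in those labelled WT. Eif2ak2, the kinase that halts translation on sensing double-stranded RNA, had 190 and 54.2 CPM in the libraries labelled Prdm16, and 165, 217 and 54.9 CPM in those labelled WT. The adaptor Mavs, through which Ifih1 and Ddx58 signal, had 29.1 and 37.3 CPM in the libraries labelled Prdm16, and 37.0, 31.0 and 37.4 CPM in those labelled WT, and thus did not share the pattern.

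Interferon transcripts themselves were close to absent. Over 10 interferon genes there were 8 and 1 counts in the libraries labelled Prdm16, and 1, 2 and 0 in those labelled WT, and 6 of the 10 genes had 0 counts in all libraries. Ifnb1, the interferon that fibroblasts make, had 1 and 0 counts in the libraries labelled Prdm16, and 1, 1 and 0 in those labelled WT. A count of 0 in a library allows up to 3 counts. None of the 10 genes passed the filter on low counts, so no difference in interferon RNA was tested.

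The receptors and kinases were expressed at like levels in the high and the low libraries. Ifnar1 had 95.0 and 97.5 CPM in the libraries labelled Prdm16, and 91.9, 90.0 and 92.0 CPM in those labelled WT. Jak1 had 347 and 373 CPM in the libraries labelled Prdm16, and 315, 375 and 285 CPM in those labelled WT. Of the 7 genes of this list 1, Ifnar2, was lowest in the same pair of libraries, a share near the 14.1% of all genes tested. Ifnar2 had 65.3 and 57.0 CPM in the libraries labelled Prdm16, and 74.3, 95.5 and 43.2 CPM in those labelled WT. None of the 2 with an adjusted p in the authors' deposited table was called, and 0 of the 7 were called by edgeR.

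The transcription factors split. Irf7, which amplifies interferon production, had 229 and 24.3 CPM in the libraries labelled Prdm16, and 312, 277 and 10.5 CPM in those labelled WT. Among the 4 factors listed with an adjusted p in the authors' deposited table, 3 were called down, against 5.58% of all such genes. These were Irf7 (-3.95), Stat2 (-2.29) and Irf9 (-2.11). Irf3, which is activated mainly by phosphorylation, had 57.9 and 52.2 CPM in the libraries labelled Prdm16, and 49.2, 56.6 and 57.2 CPM in those labelled WT. Of the 5 factors listed 4 were lowest in the same pair of libraries, all but Irf3, against 14.1% of all genes tested. By edgeR as labelled 0 of them were called.

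Of 4 brakes on the pathway, 3 were lowest in the same pair of libraries, and 2 of 3 were called down in the authors' deposited table. Usp18, which binds Ifnar2 and removes Isg15 from proteins, had 275 and 22.2 CPM in the libraries labelled Prdm16, and 265, 306 and 14.4 CPM in those labelled WT. Ptpn2, a phosphatase of the pathway, had 56.7 and 53.8 CPM in the libraries labelled Prdm16, and 58.1, 58.6 and 59.2 CPM in those labelled WT. All 8 of the other stimulated genes listed were lowest in the same pair of libraries, and the authors' deposited table called 8 of 8 down, against the same shares. The ubiquitin-like modifier Isg15 had 329 and 10.1 CPM in the libraries labelled Prdm16, and 435, 369 and 20.7 CPM in those labelled WT. Bst2, which tethers budding virus, had 471 and 54.7 CPM in the libraries labelled Prdm16, and 680, 653 and 28.1 CPM in those labelled WT. By edgeR and the labels, 0 genes of either list were called.

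**Figure D4:**
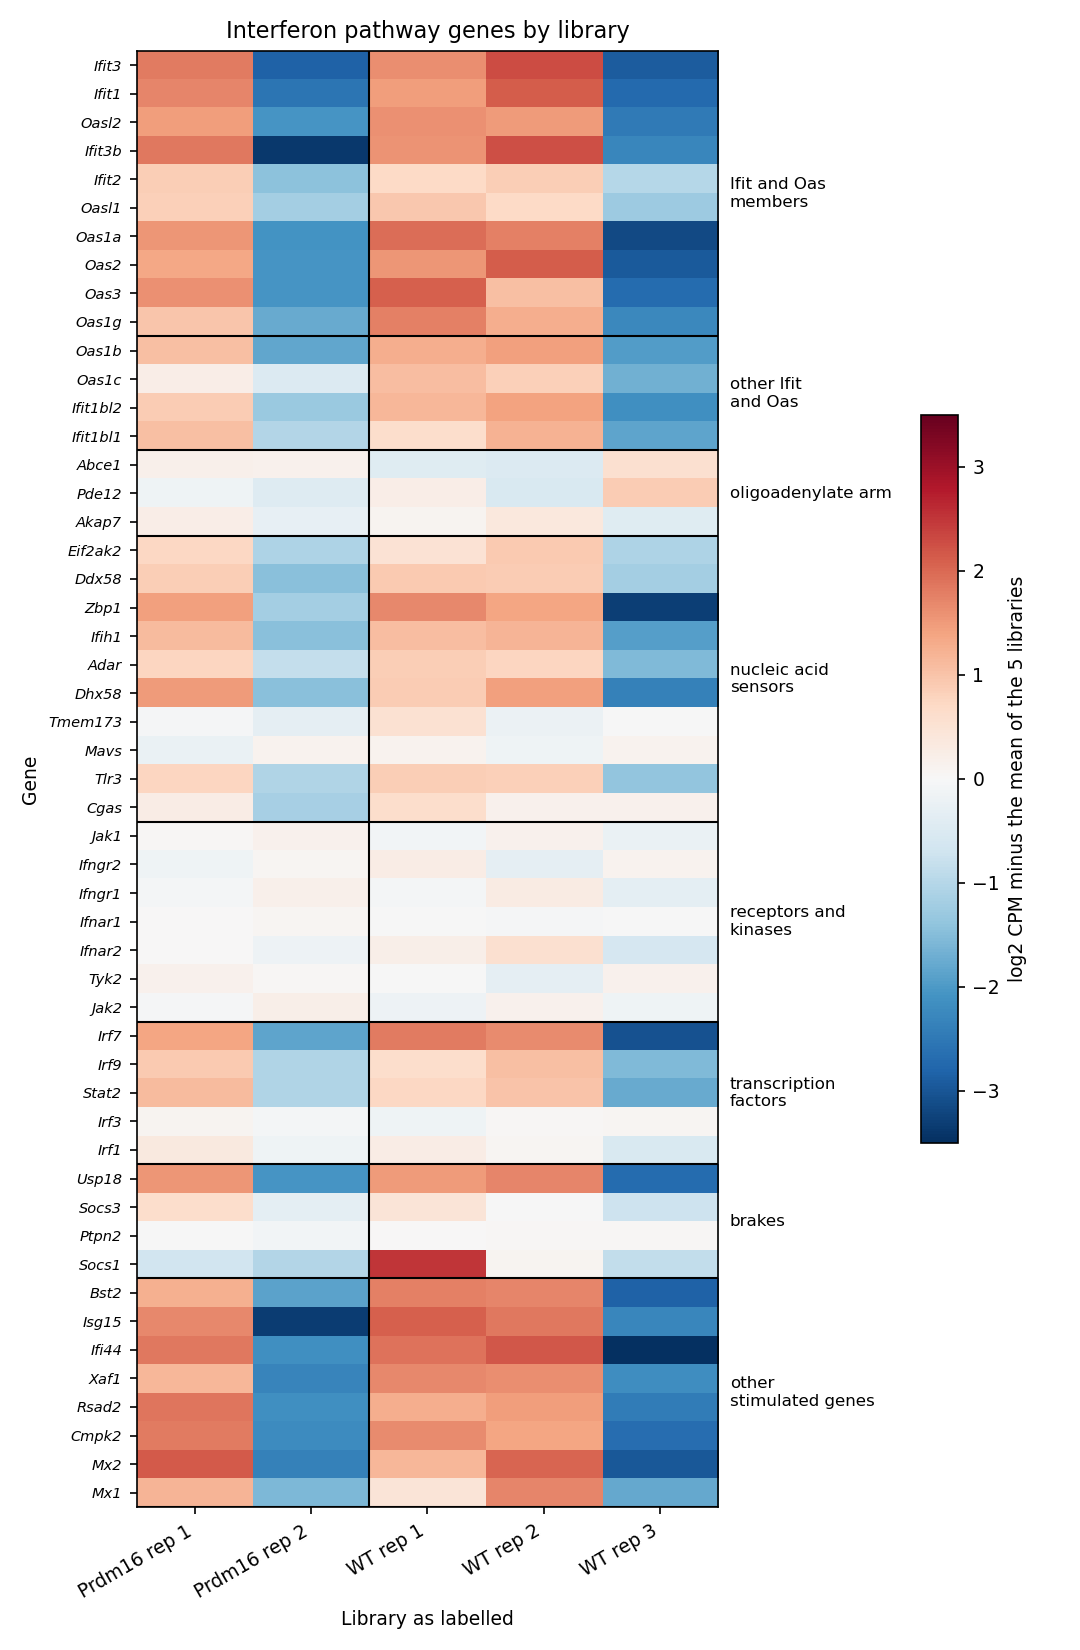
Genes of the interferon pathway in the 5 RNA libraries, as log2 CPM minus the mean of the gene over the libraries. Rows are genes grouped by role, columns are libraries with those labelled Prdm16 left of those labelled WT, and blue marks values under the mean of the gene. The columns labelled Prdm16 replicate 2 and WT replicate 3 are blue for all 10 members, while receptors and kinases such as Ifnar1 and Jak1 stay near 0.

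Markers of other cells were set beside these values. The summed level of 9 leukocyte markers was 5.95 and 7.10 CPM in the libraries labelled Prdm16, and 5.39, 6.02 and 5.97 CPM in those labelled WT, with Adgre1, Siglech and Cd3e at 0 counts in all libraries. It was as high in the low libraries as in the high ones. Endothelial markers summed to 7.59 and 6.22 CPM in the libraries labelled Prdm16, and 3.56, 4.01 and 6.25 CPM in those labelled WT. Myoblast markers summed to 119.5 and 135 CPM in the libraries labelled Prdm16, and 47.7, 56.6 and 169 CPM in those labelled WT. This sum, of which Des was the largest part, was highest in the 2 libraries where the Ifit and Oas genes were low. Itga7 was slightly higher in Prdm16 replicate 1 (26.1 CPM) than in Prdm16 replicate 2 (25.2 CPM). Myod1 (log2 fold change 1.05) was called up in the authors' deposited table. It was 1 of the 3 myoblast markers with an adjusted p there, against 123 of 6237 such genes. The part of the myoblast markers in the result was not tested. The summed FAP markers, given above, were lowest in the library labelled WT replicate 3, at 3417 CPM. Of the 6, 3 (Col3a1, Ly6a and Pdgfra) were each lowest in the same 2 libraries as the Ifit and Oas genes, against 14.1% of all genes tested. Pdgfra had 761 and 587 CPM in the libraries labelled Prdm16, and 822, 950 and 471 CPM in those labelled WT. For Ly6a the levels were 1213 and 772 CPM in the libraries labelled Prdm16, and 1366, 1703 and 760 CPM in those labelled WT. Col1a1, Dcn and Cd34 were instead each highest in the library labelled Prdm16 replicate 2. Dcn had 714 and 731 CPM in the libraries labelled Prdm16, and 602, 487 and 129 CPM in those labelled WT. Cd34 had 413 and 448 CPM in the libraries labelled Prdm16, and 279, 314 and 317 CPM in those labelled WT. Ly6a (-0.78) and Pdgfra (-0.54) were called down in the authors' deposited table. They were 2 of the 4 FAP markers with an adjusted p there, against 5.58% of all such genes, and 0 of the 6 were called by edgeR as labelled. The part of the FAP markers in the result was not tested. In such bulk RNA, fewer cells that express a gene and less RNA per cell cannot be told apart.

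The genes whose pattern over the 5 libraries was most like the average of the 10 members were Gbp7, Igtp, Tgtp1, Usp18, Xaf1, Slfn8, Irgm2, Trim30a, Tgtp2 and Rsad2. Likeness was the root mean square difference of centred log2 CPM over the 5 libraries, and it ran from 0.0838 in Gbp7 to 0.246 in Rsad2. Gbp7, a guanylate-binding protein, had 86.0 and 7.99 CPM in the libraries labelled Prdm16, and 89.0, 107.6 and 6.25 CPM in those labelled WT. Igtp, an immunity-related GTPase, had 78.2 and 5.68 CPM in the libraries labelled Prdm16, and 90.1, 96.0 and 5.78 CPM in those labelled WT. Of the members themselves Oasl2 lay closest to the average (0.0812) and Ifit2 farthest from it (0.882), followed by Oasl1 (0.846).

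H3K9me2 gave a readout that the choice of genes did not use. The authors' domains covered the whole bodies of Oas1a and Oas1g in the libraries labelled Prdm16 replicates 1 and 3 and in those labelled WT replicates 1 and 2. They covered 0% of both genes in the libraries labelled Prdm16 replicate 2 and WT replicate 3. The low RNA libraries carry the same genotypes and replicate numbers, but the labels do not tie the assays to each other. The other 8 members had 0% in all 6 libraries. Oas1a and Oas1g, which share 1 domain, were thus 2 of 10 members covered over at least a share of 0.5 of the gene in 4 or more libraries, against 343 of 13572 located genes (2.53%).

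The domain spanned chromosome 5 from 120840001 to 121116000 (276 kb) in Prdm16 replicate 1 and from 120852001 to 121077000 (225 kb) in Prdm16 replicate 3. In WT it ran from 120846001 to 121113000 (267 kb) in replicate 1 and from 120840001 to 121116000 (276 kb) in replicate 2. The authors' score of the domain was 24.5 and 11.4 in Prdm16 replicates 1 and 3, where the median domain of each library scored 17.6 and 20.5. It was 22.7 and 16.1 in WT replicates 1 and 2, where the medians were 24.5 and 17.7. The domain also covered Oas1h, Oas1d and the neuronal gene Rph3a in all 4 libraries and Oas1f in whole or in part. Those 4 genes had at most 1 count in any RNA library, whereas Oas1a had up to 550. Its edge lay 62.3 to 74.3 kb from Oas3 and 90.1 to 102 kb from Oas2.

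Averaged over the 10 genes, 13.3% ± 11.5 (SD, n = 3) of the gene body lay in H3K9me2 domains in Prdm16 and 13.3% ± 11.5 (SD, n = 3) in WT. The difference was 0 percentage points (exact two-sided permutation test, p = 1, where 3 against 3 libraries without ties cannot go below 0.1). Each library had 20% or 0%, set by the 1 domain over Oas1a and Oas1g. The test thus compared only whether that domain was present, and with such ties its smallest possible p is above 0.1. Over all 13572 located genes the mean share was 2.71%, 3.44% and 2.97% in the Prdm16 libraries, and 4.89%, 2.79% and 3.77% in the WT libraries. All H3K9me2 domains covered 575, 841 and 690 Mb in Prdm16 replicates 1, 2 and 3, and 1017, 635 and 887 Mb in WT replicates 1, 2 and 3. The read depth behind these domains is unknown.

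**Figure D5:**
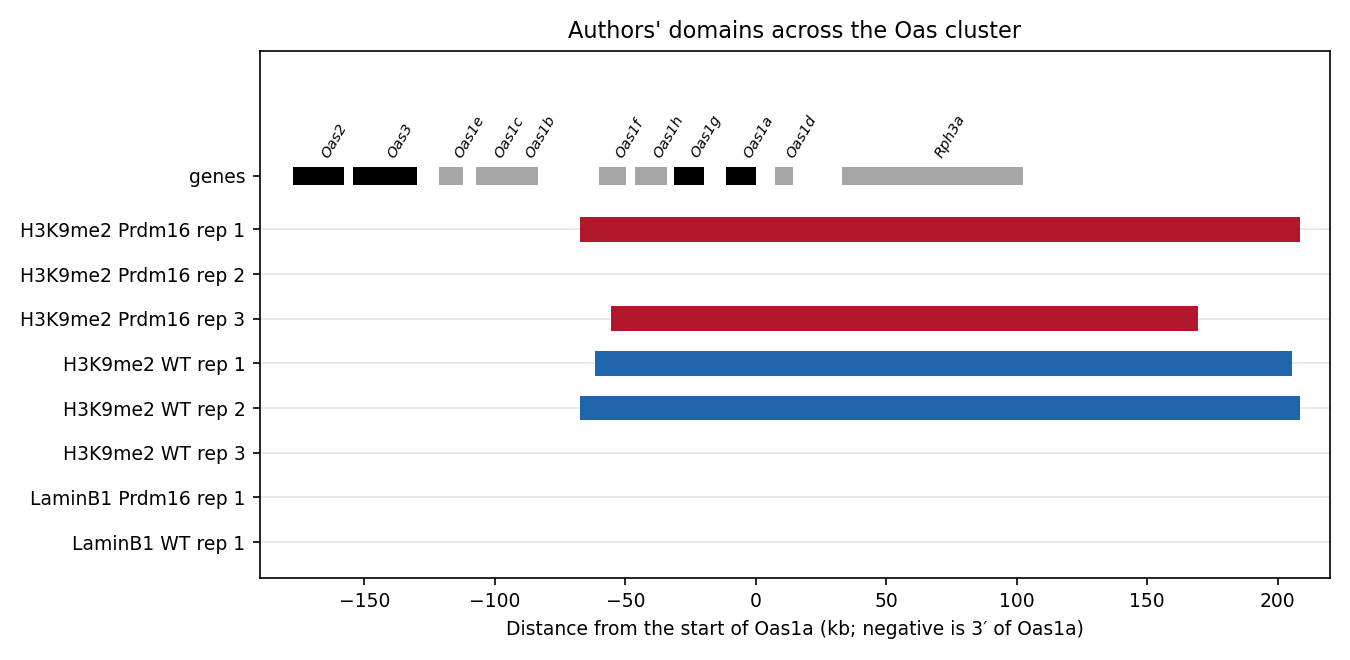
The authors' domains across the Oas cluster, in kb from the start of Oas1a. The top row shows members in black and other genes in grey, and each lower row is a library with its domains as bars, Prdm16 above WT for each mark. Bars lie over Oas1a and Oas1g in H3K9me2 Prdm16 replicates 1 and 3 and WT replicates 1 and 2, and the LaminB1 rows are empty.

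The Ifit cluster lay outside H3K9me2 domains in every library. The nearest domain was 345 to 348 kb from Ifit1 and 418 to 421 kb from Ifit2 in 5 of the 6 libraries. In Prdm16 replicate 3 it was 2889 kb from Ifit2 and 2979 kb from Ifit1. Oasl1 and Oasl2 were 1105 kb or more from a domain in every library. LaminB1 domains covered 0% of all 10 genes in the 1 Prdm16 library and in the 1 WT library. The nearest was 334 kb from Oas2 in Prdm16 and 314 kb from it in WT. LaminB1 domains covered 331 Mb in the Prdm16 library and 693 Mb in the WT library, and without replicates no test was made.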

How the data were processed

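Per the labels, SMART-seq2 on polyadenylated RNA gave the 5 RNA libraries. The deposited table held raw counts of 55341 genes. In the submitters' processing notes, the tools STAR 2.7, Bowtie 1.2.2, DESeq2 1.20 and featureCounts are named without a role, as are the builds GRCm38, mm10 and dm6. The authors' deposited comparison table held a mean normalized signal, a log2 fold change of Prdm16 over WT with its SE, and p-values with their adjustment. No source used here says how the authors' log2 fold changes were estimated. Each deposited domain list held positions and the authors' score, 1 list per library, made by a caller that no source names. The authors' normalized table and the 8 input samples were not used.

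The quasi-likelihood test of edgeR 4.0.16 (R 4.3.3, robust, two-sided) compared the genotypes in the 15240 genes kept by filterByExpr, with TMM scaling of library sizes and Benjamini-Hochberg adjustment over those genes. The script was tested on simulated data. Totals ran from 5839587 to 10657791 counts. Intervals of count ratios are exact 95% binomial ones and cover counting error only. DESeq2 1.42.0 was run as an alternative and for the check of labels. Domain shares are the percent of the RefSeq gene body (GRCm38.p6) covered by the deposited domains, compared by exact permutation in Python 3.11.15 with scipy 1.17.1, numpy 2.4.6 and pandas 2.3.3. Of the tested genes 13572 were located. Promoter windows came from RefSeq (GRCm38.p6), paralogous windows were aligned with Biopython 1.88, and plots were drawn with matplotlib 3.10.9.

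The members, the gene lists and the tests were chosen with earlier results of these data known. All 10 members are named. Of each of 13 gene lists up to 6 genes with the highest mean CPM could be named, and Mavs and genes at 0 were named outside that rule after their values were seen. Some genes of the pathway are not reported here. The 10 genes of most like pattern were those with the smallest root mean square difference. Alternatives were another scaling, no filter on low counts, DESeq2, a replicate block, leaving out each library, wider gene bodies, higher scores and other motifs.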

Additional observations from a re-analysis of the deposited data

How the results depend on the processing

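By the labels edgeR called 0 genes, and 0 with DESeq2's size factors. DESeq2 called 1, edgeR without a filter on low counts 25, and leaving out 1 library gave 0 to 4. Without both libraries whose labels the authors' deposited table contradicts, a setting chosen after seeing the data, 93 were called (14 higher, 79 lower), from fewer libraries and with 1 library labelled Prdm16. The median log2 fold change of the 10 genes ran from -3.51 to 0.45 when 1 library was left out and was -4.08 without both. With other scaling, no filter or DESeq2 it was between -0.51 and -0.49, and no member changed sign. Replicate numbers are not paired by the labels, and same-numbered libraries correlated at 0.21 and -0.20 in their deviations. With a replicate block 1 gene was called and the median was -1.86, with all 10 members negative. In that setting WT replicate 3 was alone in its block and added nothing to the comparison of genotypes. For H3K9me2 the replicate block left the difference at 0 (exact sign-flip test, p = 1, smallest possible 0.25 without ties and higher with the ties here). Domains scoring at or above the median of their library gave 6.67% in Prdm16 and 0% in WT, all of it from Prdm16 replicate 1. With only that library above 0, every split gives the same absolute difference, so the exact permutation test (p = 1) could not decide. With all domains, leaving out 1 library gave differences from -6.67 to 6.67 percentage points (-0.0667 to 0.0667 as a fraction). With 10 kb added on both sides the shares were the same. LaminB1 shares stayed at 0 in both alternatives. Members with the core numbered 6, with the longer core 5 and with the gamma-activated site 2, which is another motif. Depth limits Oas1g, Oas3, Oas2 and Oas1a, which had 2 to 17 counts in the low libraries. A single library left out decided the sign of most members, and the cause was not tested.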
